A study of Mus musculus with 8 samples.

Results

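The insulin granule is released by a small set of proteins that tether it, dock it and fuse it with the plasma membrane. A list of 47 genes for these proteins was followed in islets of lean and leptin-deficient mice: SNAREs, synaptotagmins, syntaxin-binding proteins, Rab3 and Rab27 GTPases with their effectors, and docking and priming factors. The members were taken by name, without use of their values, and all 47 carried a value among the 20715 genes the authors listed. All 8 libraries came from islets of 12-week-old C57BL/6 mice, 4 of genotype ob/+ and 4 of genotype ob/ob. Both groups carry the ob allele of the leptin gene, 1 copy in the lean ob/+ controls and both copies in ob/ob, so there is no wild-type group. An ob/ob mouse makes no working leptin, and it becomes obese and hyperinsulinaemic. Islets were freed with collagenase, purified on a density gradient and picked by hand, which leaves every islet cell type and attached tissue in the RNA. Whether each numbered library is its own mouse is not stated in the labels. Each p-value therefore reflects how much these libraries varied, and part of that variation may be technical.

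A granule docks when Rab3 or Rab27 on its surface binds effectors such as granuphilin (Sytl4), Noc2 (Rph3al) and Rim2 (Rims2) near the plasma membrane. A granule SNARE of the VAMP family then zips together with a syntaxin and SNAP-25 in the plasma membrane. Munc13 proteins (Unc13a, Unc13b) and CAPS proteins (Cadps, Cadps2) prime this step, tomosyns and complexins restrain or time it, and synaptotagmins trigger it when calcium rises. NSF and its adaptor alpha-SNAP (Napa) pull the used SNARE complexes apart. Islet endocrine cells share much of this set with neurons.

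The 250 bases upstream of the start site are printed for 6 members whose level differed between the genotypes, 3 lower and 3 higher in ob/ob, because these genes carry much of what follows. They were taken from RefSeq on GRCm38.p6 as the called members with 1 listed start and the smallest adjusted p in each direction. Each is written 5′ to 3′ on the strand of the gene, and capitals mark a GC box (GGGCGG), the core of a cAMP-response element (TGACG) or a TATA box (TATAAA), on either strand.
Stxbp5l (chr16:37384959-37385208, minus strand): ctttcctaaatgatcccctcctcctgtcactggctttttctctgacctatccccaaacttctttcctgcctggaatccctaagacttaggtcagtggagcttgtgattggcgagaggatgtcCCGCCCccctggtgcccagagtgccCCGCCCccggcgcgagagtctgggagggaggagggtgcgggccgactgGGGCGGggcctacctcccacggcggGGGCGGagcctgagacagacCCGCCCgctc
Stx1a (chr5:135023232-135023481, plus strand): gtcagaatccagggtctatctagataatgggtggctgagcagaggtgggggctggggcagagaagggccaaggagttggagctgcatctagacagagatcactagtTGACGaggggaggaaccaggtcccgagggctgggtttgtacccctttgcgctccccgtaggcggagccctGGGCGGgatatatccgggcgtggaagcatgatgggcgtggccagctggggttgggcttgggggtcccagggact
Sytl4 (chrX:133981813-133982062, minus strand): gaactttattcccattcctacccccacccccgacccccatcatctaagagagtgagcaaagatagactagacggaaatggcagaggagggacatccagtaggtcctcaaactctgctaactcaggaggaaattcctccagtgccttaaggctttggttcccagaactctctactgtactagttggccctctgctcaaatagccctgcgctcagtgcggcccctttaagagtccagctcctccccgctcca
Rab3d (chr9:21918184-21918433, minus strand): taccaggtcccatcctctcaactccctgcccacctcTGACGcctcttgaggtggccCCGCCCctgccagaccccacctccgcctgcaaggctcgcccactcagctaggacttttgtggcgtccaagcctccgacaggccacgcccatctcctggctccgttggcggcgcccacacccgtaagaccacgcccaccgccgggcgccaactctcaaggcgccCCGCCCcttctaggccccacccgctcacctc
Rab3b (chr4:108878820-108879069, plus strand): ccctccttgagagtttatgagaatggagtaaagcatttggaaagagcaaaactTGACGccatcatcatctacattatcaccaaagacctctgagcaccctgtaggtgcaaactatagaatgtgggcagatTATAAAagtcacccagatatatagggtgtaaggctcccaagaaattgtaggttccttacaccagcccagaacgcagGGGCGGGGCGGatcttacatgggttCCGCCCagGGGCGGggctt
Syt16 (chr12:73997527-73997776, plus strand): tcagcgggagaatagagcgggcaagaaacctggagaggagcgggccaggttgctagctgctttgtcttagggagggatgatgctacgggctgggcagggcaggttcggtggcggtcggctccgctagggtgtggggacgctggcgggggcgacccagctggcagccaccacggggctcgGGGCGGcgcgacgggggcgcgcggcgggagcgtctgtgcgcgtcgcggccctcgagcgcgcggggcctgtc
Stxbp5l carried 5 GC boxes in this window and Rab3b carried 4, with a TATA box beside them in Rab3b, while Sytl4 carried none of the 3 motifs. RefSeq windows were found by symbol for 34 of the 47 members, 38 windows in all. A GC box stood in 24 of these 38 (63.2%), against 32.7% of the 32851 windows of all genes. The core element stood in 11 (28.9%, against 17.8%) and the TATA box in 2 (5.26%, against 12.4%). The member windows had a median GC content of 60%, against 52.4% for all windows. The E-boxes CAGCTG and CACGTG, searched on the same windows, stood in 26.3% and 18.4% of member windows, against 13% and 6.02% of all, and the full element TGACGTCA, which holds the core, stood in 2.63% against 1.55%. The GC box was found in 5 of the 6 windows of members that were higher in ob/ob and in 8 of the 10 windows of members that were lower, so this motif did not separate the directions. The core element stood in 3 of the 6 and 2 of the 10, and CAGCTG in 1 and 5. The TATA box stood in 1 and 0, the full element in 0 and 1, and CACGTG in 0 of both. The windows are few, and no difference between the directions was tested. Matches of different motifs may share bases, and a match describes the letters only.

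Values are FPKM, fragments scaled by transcript length and library size, so levels of different genes can be set side by side. The FPKM of a library added up to 820968 to 880570 among the ob/+ and to 920734 to 1004230 among the ob/ob libraries, and 11363 to 11883 genes reached 1 FPKM in a library. The relative depth of the libraries, a rough estimate from the steps in low values, lay between 0.981 and 1.03, and the absolute depth is unknown. The insulin genes Ins1 and Ins2 took 48.8 ± 5.31% (SD) of the summed FPKM in ob/+ and 60.7 ± 3.72% in ob/ob, as the label of pancreatic islet implies. Lep, the gene that the ob allele inactivates, has no value in any library, so these files hold no check of the genotype. A list of 17 digestive enzyme and acinar genes took 4.46 to 15.1% in ob/+, highest in library 4, and 1.98 to 7.02% in ob/ob, highest in library 1. Alpha, delta and PP cell markers were lower in ob/ob, with summed levels 3.18, 4.56 and 2.92 times higher in ob/+, and none of the endothelial or macrophage markers was called. Of 6 duct markers tested, 2 were called higher. Of 7 mesenchyme markers tested, 2 were called higher and 3 lower. In such bulk RNA, fewer cells of a type and less RNA per cell cannot be told apart.

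The exocytosis genes did not move as a block. Of the 47 members, 44 reached 1 FPKM in at least 4 libraries and were tested with limma among 11747 genes; 9 rose in ob/ob, 11 fell and 24 did not pass the threshold of 0.05 for the Benjamini-Hochberg adjusted p. Over all tested genes 18.8% were called, 8.21% higher and 10.6% lower, while 20 of 44 members (45.5%) were called. Of the 11 that fell, 4 (Stxbp5l, Rab3c, Doc2b and Cplx1) passed the filter through their ob/+ values alone and so had to differ. The values of the 2 genotypes did not overlap for 21 of the 44 tested members, against 20.5% of all tested genes. The median log2 change of the members was -0.06, beside -0.07 for all tested genes. Every log2 change below is ob/ob minus ob/+ on the log2(FPKM + 1) scale, with its standard error and limma's adjusted p, and every fold is a ratio of mean FPKM.

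**Figure D1:**
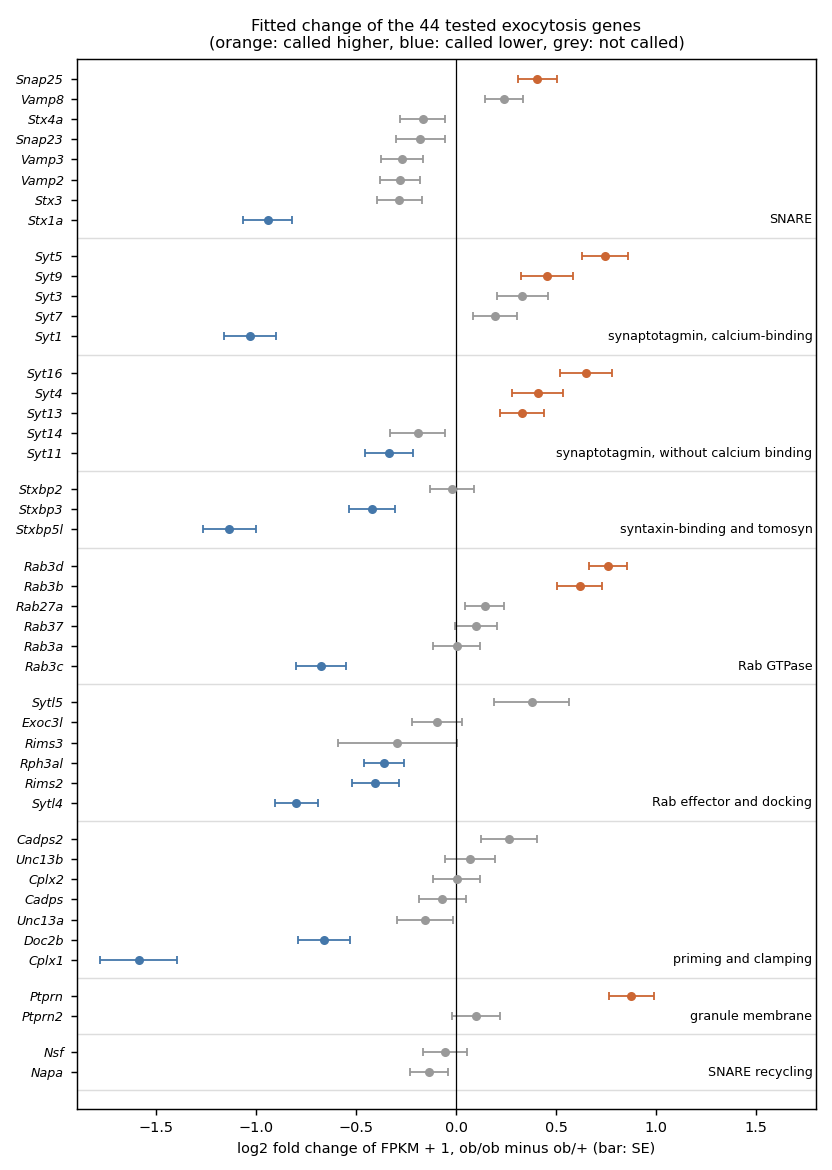
Log2 change of FPKM + 1 (ob/ob minus ob/+) for the 44 tested exocytosis genes, grouped by role, with bars of 1 SE; orange points were called higher, blue points lower, grey points not called. Calls in both directions stand within the SNARE, synaptotagmin and Rab groups, while the effector, priming and syntaxin-binding groups hold called genes on the lower side only. Of these lower genes, Cplx1, Doc2b and Stxbp5l passed the filter through their ob/+ values alone, which fixed their direction. The same holds for Rab3c, the only lower gene of the Rab group.

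Among the SNAREs the 2 plasma membrane partners went in opposite directions. Stx1a (syntaxin 1A, chr5:135023482-135051100, plus strand) read 5.40, 5.96, 5.34 and 4.88 FPKM in the ob/+ libraries and 2.75, 2.52, 2.14 and 1.93 FPKM in the ob/ob libraries, each list in the order of libraries 1 to 4. The groups lay far apart, 2.31 times higher in ob/+, and the log2 change was -0.94 ± 0.12 (adjusted p = 3.14e-06). Snap25 (SNAP-25, chr2:136713453-136782428, plus strand) read 68.0, 59.7, 67.8 and 53.6 FPKM in the ob/+ libraries and 82.4, 76.8, 88.0 and 82.8 FPKM in the ob/ob libraries. Every ob/ob library was above every ob/+ library, 1.32-fold on average, with a log2 change of 0.40 ± 0.10 (adjusted p = 0.00412). The call of Snap25 was lost (adjusted p = 0.165) when libraries were scaled on the non-acinar genes, while that of Stx1a held under every alternative run. The sum used in that scaling still held the insulin genes, which took a larger share in ob/ob. With it, 4.37% of all tested genes were called higher and 47% lower. These shares also apply to the calls below that were lost with this scaling.

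The other 6 SNAREs were not called. Vamp2, the main granule SNARE of beta cells and the most abundant SNARE here, stood at 125 ± 16.8 FPKM in ob/+ and 102 ± 7.70 in ob/ob (SD, n = 4 each) and missed the threshold narrowly (log2 change -0.28 ± 0.10, adjusted p = 0.0509 in limma). Stx3 (-0.29 ± 0.11), a syntaxin linked to granule-to-granule fusion, Vamp3 (-0.27 ± 0.10), a VAMP of recycling endosomes, and Vamp8 (0.24 ± 0.10), an endosomal and exocrine granule SNARE, also missed it although their groups did not overlap. Their adjusted p values were 0.0840, 0.0732 and 0.0849. Stx4a (syntaxin 4, -0.17 ± 0.11) and Snap23 (-0.18 ± 0.12), the more widely expressed relatives of syntaxin 1A and SNAP-25, overlapped between the genotypes. Without ob/+ library 4, which had the largest acinar share, all 6 passed the threshold (adjusted p from 0.00134 to 0.0399), Vamp8 on the higher side and the other 5 on the lower side. In that run 9.51% of all tested genes were called higher and 32.1% lower, against 8.21% and 10.6% with every library. These shares also apply to the genes below that passed without ob/+ library 4.

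Shares within a family do not depend on how a library is scaled. Stx1a made up 16.7 ± 0.84% (SD) of the summed FPKM of the 3 syntaxins in ob/+ and 9.26 ± 1.46% in ob/ob, and the share of Stx4a was 46.5 ± 0.59% and 52.6 ± 2.70%. Snap25 made up 81.9 ± 2.52% of Snap25 plus Snap23 in ob/+ and 87.3 ± 1.48% in ob/ob. Within the VAMPs, Vamp8 took 26.2 ± 4.22% and 33.7 ± 1.65%, while the Vamp2 shares of 60.8 ± 3.91% and 54.6 ± 2.16% overlapped between the groups. The shares of Stx1a, Stx4a, Snap25 and Vamp8 did not overlap between the genotypes. These shares are a description and were not tested.

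**Figure D2:**
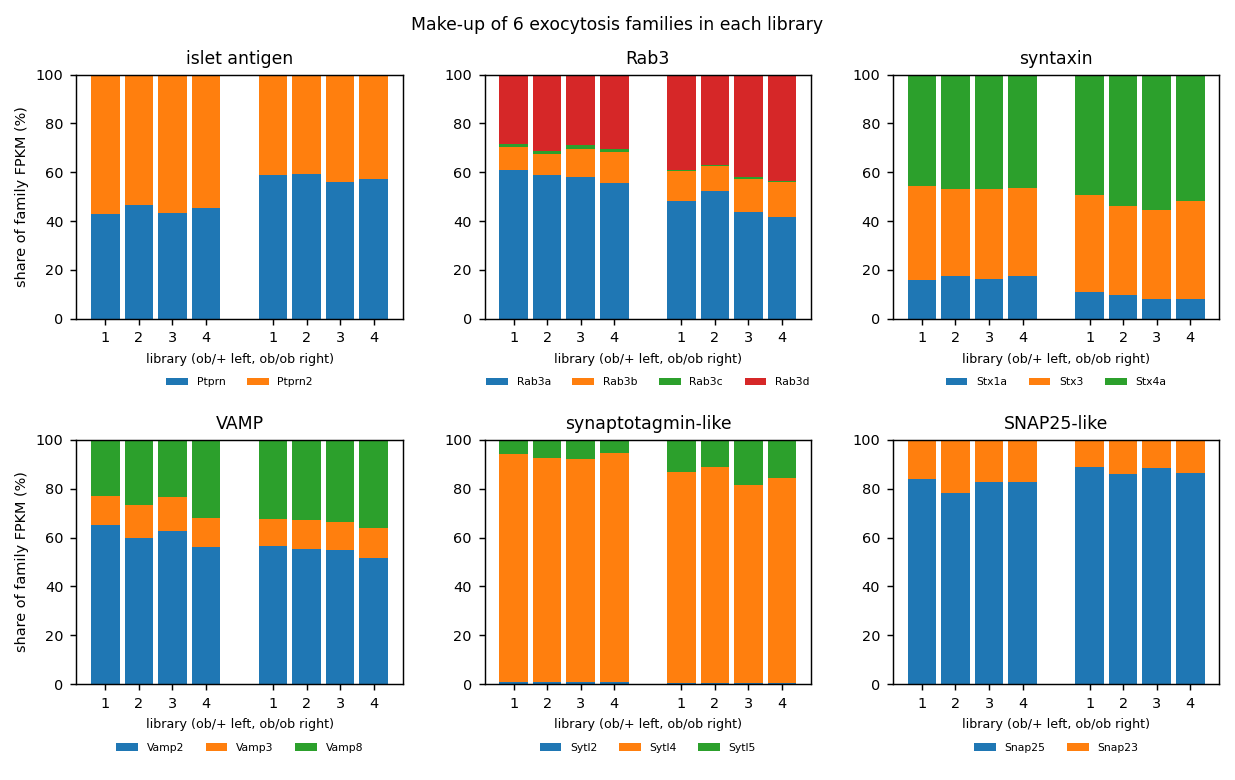
Share of each gene in the summed FPKM of its family (vertical axis, %) in each of the 4 ob/+ libraries (left) and 4 ob/ob libraries (right) for 6 families, 1 stacked bar per library. The Ptprn share sits near 44.5% in ob/+ and 57.9% in ob/ob, and the Rab3d share near 29.8% and 40.4%, with no overlap between the groups.

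The calcium-binding synaptotagmins, which carry the calcium signal to the SNAREs, also split. Syt1, the fast sensor of synaptic vesicles, read 2.93, 2.73, 3.61 and 2.62 FPKM in ob/+ and 0.72, 0.96, 1.31 and 0.79 in ob/ob (chr10:108497650-109010982, minus strand). Its log2 change was -1.03 ± 0.13 (adjusted p = 1.88e-06), and ob/+ was 3.15-fold higher with no overlap. Syt5 (chr7:4539765-4547541, minus strand) read 19.6, 24.4, 19.1 and 17.0 FPKM in ob/+ and 35.0, 29.2, 34.5 and 37.1 in ob/ob. All ob/ob values lay above the highest ob/+ value, 1.70-fold on average, with a change of 0.74 ± 0.11 (adjusted p = 3.46e-05). Syt9, a calcium sensor of dense-core vesicles, read 5.11, 5.47, 5.51 and 3.74 FPKM in ob/+ and 7.62, 6.50, 8.28 and 6.12 in ob/ob. Its change was 0.45 ± 0.13 (adjusted p = 0.0168), and the call was lost without ob/ob library 1 (adjusted p = 0.0638), without ob/ob library 3 (0.0601), with scaling on the non-acinar genes (0.129) and with the acinar share as a covariate (0.0517). Syt7, the most abundant calcium-binding member, stood at 41.0 ± 5.80 FPKM in ob/+ and 46.7 ± 3.75 in ob/ob and was not called (adjusted p = 0.241). Syt3 was not called either, at 0.33 ± 0.13 (adjusted p = 0.0732).

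The synaptotagmins that do not bind calcium held the highest level of the family. Syt13 read 291, 269, 283 and 198 FPKM in ob/+ and 316, 348, 345 and 287 in ob/ob, which was 67.3 ± 1.51% of all 10 synaptotagmins measured in ob/+ and 67.6 ± 2.18% in ob/ob. Its log2 change was 0.33 ± 0.11 (adjusted p = 0.0424), the groups overlapped, and the call was lost in 10 of the 20 alternatives, among them 5 that left out a single library (ob/+ 2 or 4, or ob/ob 1, 2 or 3). Syt16 (chr12:73997661-74273267, plus strand), a low gene of this class, read 1.15, 0.86, 1.34 and 1.08 FPKM in ob/+ and 2.59, 2.26, 2.72 and 1.70 in ob/ob. It was 2.09-fold higher in ob/ob without overlap (0.65 ± 0.13, adjusted p = 7.35e-04) and kept its call throughout. Syt4, found on maturing granules, read 32.8, 37.5, 30.6 and 22.2 FPKM in ob/+ and 37.8, 39.1, 39.4 and 45.8 in ob/ob. Its change was 0.41 ± 0.13 (adjusted p = 0.0290). The call was lost in 5 alternatives, with the adjusted p reaching 0.107 without ob/ob library 4 and 0.211 with scaling on the non-acinar genes. Syt11 read 12.6, 13.4, 13.3 and 10.2 FPKM in ob/+ and 8.63, 9.28, 10.7 and 9.57 in ob/ob. Its call (-0.34 ± 0.12, adjusted p = 0.0497) stood at the threshold, its groups overlapped, and 12 of 20 alternatives lost it, including the omission of any single library except ob/+ 4 and ob/ob 3. Syt14 was not called (-0.19 ± 0.14, adjusted p = 0.355) but passed on the lower side without ob/+ library 4 (adjusted p = 0.0101).

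Of the syntaxin-binding proteins and tomosyns, 2 of 3 fell. Stxbp5l (tomosyn-2, chr16:37114942-37384962, minus strand), which binds syntaxin and hinders SNARE assembly, read 1.96, 2.08, 2.56 and 1.30 FPKM in the ob/+ libraries and 0.28, 0.25, 0.46 and 0.37 FPKM in the ob/ob libraries. It was 5.81-fold higher in ob/+, with a change of -1.14 ± 0.13 (adjusted p = 7.53e-07). Stxbp5l passed the filter through its ob/+ values alone, so its direction was fixed in advance. Stxbp3 (Munc18-3, chr3:108793176-108840526, minus strand), the partner of syntaxin 4, read 12.1, 10.5, 11.9 and 10.5 FPKM in ob/+ and 7.70, 7.65, 9.31 and 7.98 in ob/ob. Every ob/ob library lay below every ob/+ library (-0.42 ± 0.12, adjusted p = 0.0105), and the call was lost without ob/+ library 1 (adjusted p = 0.0548), without ob/+ library 3 (0.0506) and with scaling that omits the 10 most abundant genes (0.157). Stxbp2 (Munc18-2) stood at 27.5 ± 3.24 FPKM in ob/+ and 27.0 ± 2.75 in ob/ob and was not called (adjusted p = 0.906).

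The 4 Rab3 GTPases, which recruit effectors to the granule, gave 3 different outcomes. Rab3d (chr9:21907491-21918192, minus strand) read 37.4, 40.6, 34.3 and 32.4 FPKM in ob/+ and 62.1, 60.5, 61.6 and 62.3 in ob/ob. The ob/ob libraries lay close together and all above ob/+, 1.70-fold on average (0.76 ± 0.10, adjusted p = 2.29e-06). Rab3d is also known on the granules of exocrine acinar cells. With the acinar covariate in the fit its change was 0.69 (limma adjusted p = 1.71e-05). How much of its level came from acinar cells was not tested. Rab3b (chr4:108879063-108943324, plus strand) read 12.0, 10.6, 13.4 and 13.6 FPKM in ob/+ and 19.9, 17.3, 20.0 and 20.8 in ob/ob, 1.57-fold higher in ob/ob (0.62 ± 0.11, adjusted p = 2.76e-04). Rab3c (chr13:110054187-110280996, minus strand) read 1.62, 1.56, 1.99 and 1.26 FPKM in ob/+ and 0.50, 0.61, 0.80 and 0.60 in ob/ob, 2.56-fold higher in ob/+ (-0.68 ± 0.12, adjusted p = 2.85e-04). Rab3c passed the filter through its ob/+ values alone, so this lower outcome was fixed in advance. Rab3a, on average the most abundant of the 4 in both groups, stood at 71.1 ± 9.03 FPKM in ob/+ and 71.4 ± 11.8 in ob/ob, with a change near 0 (0.00 ± 0.12, adjusted p = 0.998). As a share of Rab3 FPKM, Rab3a was 58.5 ± 2.24% in ob/+ and 46.4 ± 4.69% in ob/ob, and Rab3d 29.8 ± 1.36% and 40.4 ± 2.95%, in both cases without overlap. The Rab3b shares of 10.4 ± 2.05% and 12.8 ± 1.71% overlapped between the groups. So did the shares of the called Syt4, Syt5, Syt9, Syt13 and Rims2 within their families.

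Rab27a, which with granuphilin docks insulin granules, made up 98.6 to 99.6% of Rab27 FPKM in every library and was not called (63.1 ± 7.59 FPKM in ob/+ and 69.4 ± 1.47 in ob/ob, adjusted p = 0.335). Its close relative Rab27b stayed at or below 0.76 FPKM and was not tested. Rab37, another granule Rab, was not called (51.4 ± 7.04 FPKM in ob/+ and 54.7 ± 3.10 in ob/ob, adjusted p = 0.566).

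The Rab effectors and docking proteins held 3 lower genes and no higher one. Sytl4 (granuphilin, chrX:133936385-133981812, minus strand) read 85.3, 83.9, 82.6 and 64.5 FPKM in the ob/+ libraries and 40.4, 50.2, 41.0 and 47.9 FPKM in the ob/ob libraries. The highest ob/ob value lay well under the lowest ob/+ value, and ob/+ was 1.76-fold higher (-0.80 ± 0.11, adjusted p = 4.53e-06), a call kept in every alternative. Rph3al (Noc2, chr11:75830999-75938429, minus strand) read 79.9, 75.8, 69.0 and 69.8 FPKM in ob/+ and 57.6, 56.2, 66.1 and 49.4 in ob/ob. The groups did not overlap (-0.36 ± 0.10, adjusted p = 0.0124), but the call was lost without ob/+ library 1 (adjusted p = 0.0608), without ob/ob library 4 (0.0664) and with scaling that omits the 10 most abundant genes (0.23). Rims2 (Rim2, chr15:39198261-39684372, plus strand), a scaffold that links Rab3 to the release site, read 8.58, 8.51, 9.29 and 7.67 FPKM in ob/+ and 5.88, 6.27, 6.89 and 5.70 in ob/ob. Its change was -0.41 ± 0.12 (adjusted p = 0.0153). The call was lost without ob/+ 1, ob/+ 3, ob/ob 1 or ob/ob 4 (adjusted p from 0.0536 to 0.0795) and with scaling that omits the 10 most abundant genes (0.191).

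The remaining effectors were not called or lay below the filter. Sytl5, a relative of granuphilin, was not called (0.38 ± 0.19, adjusted p = 0.189), but its share of the 3 synaptotagmin-like genes was 6.64 ± 1.30% in ob/+ and 14.6 ± 3.31% in ob/ob, without overlap. Sytl2 never reached 1 FPKM and read 0.65, 0.67, 0.66 and 0.66 FPKM in ob/+ and 0.16, 0.18, 0.15 and 0.16 in ob/ob. It was 4.06-fold higher in ob/+ with very tight groups, and with no filter its change was -0.51 (adjusted p = 3.74e-05). Rims3, a short Rim, read 21.9, 18.1, 22.1 and 8.48 FPKM in ob/+ and 11.4, 13.1, 14.8 and 14.3 in ob/ob, and its ob/+ library 4 stood far below the other 3. It was not called (-0.30 ± 0.30, adjusted p = 0.556), but without that library the change was -0.59 (adjusted p = 1.59e-04). Rims1 stayed at or below 0.10 FPKM, and Exoc3l, an exocyst-related gene, was not called (-0.10 ± 0.13, adjusted p = 0.631).

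Among the priming and clamping genes the abundant ones were not called and both called genes were low ones. Cplx1 (complexin 1, chr5:108518554-108550024, minus strand), which binds the assembled SNARE complex, read 3.56, 2.05, 4.63 and 1.95 FPKM in the ob/+ libraries and 0.08, 0.41, 0.47 and 0.26 FPKM in the ob/ob libraries. With 9.99-fold more in ob/+ it had the largest fitted change of all 44 tested members, -1.59 ± 0.19 (adjusted p = 4.23e-05), although the ob/+ libraries themselves spread from 1.95 to 4.63. Complexin 2 (Cplx2), the more abundant complexin, stood at 113 ± 20.5 FPKM in ob/+ and 112 ± 11.4 in ob/ob, with a change near 0 (0.00 ± 0.12, adjusted p = 0.999). Doc2b (chr11:75768966-75796049, minus strand), a soluble calcium sensor, read 1.86, 1.30, 1.94 and 1.07 FPKM in ob/+ and 0.53, 0.56, 0.60 and 0.66 in ob/ob, 2.63-fold higher in ob/+ (-0.66 ± 0.13, adjusted p = 5.68e-04). The priming factors Unc13a (-0.16 ± 0.14, adjusted p = 0.477), Unc13b (0.07 ± 0.13, adjusted p = 0.755), Cadps (-0.07 ± 0.12, adjusted p = 0.724) and Cadps2 (0.26 ± 0.14, adjusted p = 0.205) were not called, and Unc13a passed on the lower side without ob/+ library 4 (adjusted p = 0.0125).

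Stxbp5l, Rab3c, Doc2b and Cplx1 each reached 1 FPKM in the 4 ob/+ libraries and in no ob/ob library, so their filter rested on the group where they were high. Leaving out an ob/+ library took them below the filter. With the filter lowered to 3 libraries, an alternative added after the data were seen, all 4 stayed called without each ob/+ library in turn, with adjusted p up to 0.00635. They again entered through their ob/+ values alone and so had to differ, and these runs give the calls no support. At such levels the log2(FPKM + 1) scale understates the change.

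On the granule membrane, Ptprn (IA-2, chr1:75247027-75264502, minus strand), a protein of the insulin granule and an autoantigen in type 1 diabetes, read 154, 183, 161 and 117 FPKM in the ob/+ libraries and 275, 289, 306 and 249 FPKM in the ob/ob libraries. The lowest ob/ob value lay far above the highest ob/+ value. The change was 1.82-fold, or 0.87 ± 0.11 (adjusted p = 9.22e-06), the largest rise of any tested member on the log2(FPKM + 1) scale. By the ratio of mean FPKM, Syt16 rose more (2.09-fold). Ptprn kept its call in every alternative. Its paralogue Ptprn2 (phogrin) stood at 192 ± 33.0 FPKM in ob/+ and 204 ± 24.5 in ob/ob and was not called (adjusted p = 0.628). Ptprn made up 44.5 ± 1.75% of the pair in ob/+ and 57.9 ± 1.45% in ob/ob, so the order of the 2 genes differed between the genotypes in every library. Nsf (-0.06 ± 0.11) and Napa (-0.14 ± 0.10), which recycle SNAREs, were not called (adjusted p = 0.759 and 0.339). Exons of Syt4, Syt16, Rab3b, Doc2b and Ptprn overlap an annotated gene on the other strand in GENCODE M21, and as no strand setting is given in the sources used here, reads of the 2 cannot be told apart.

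**Figure D3:**
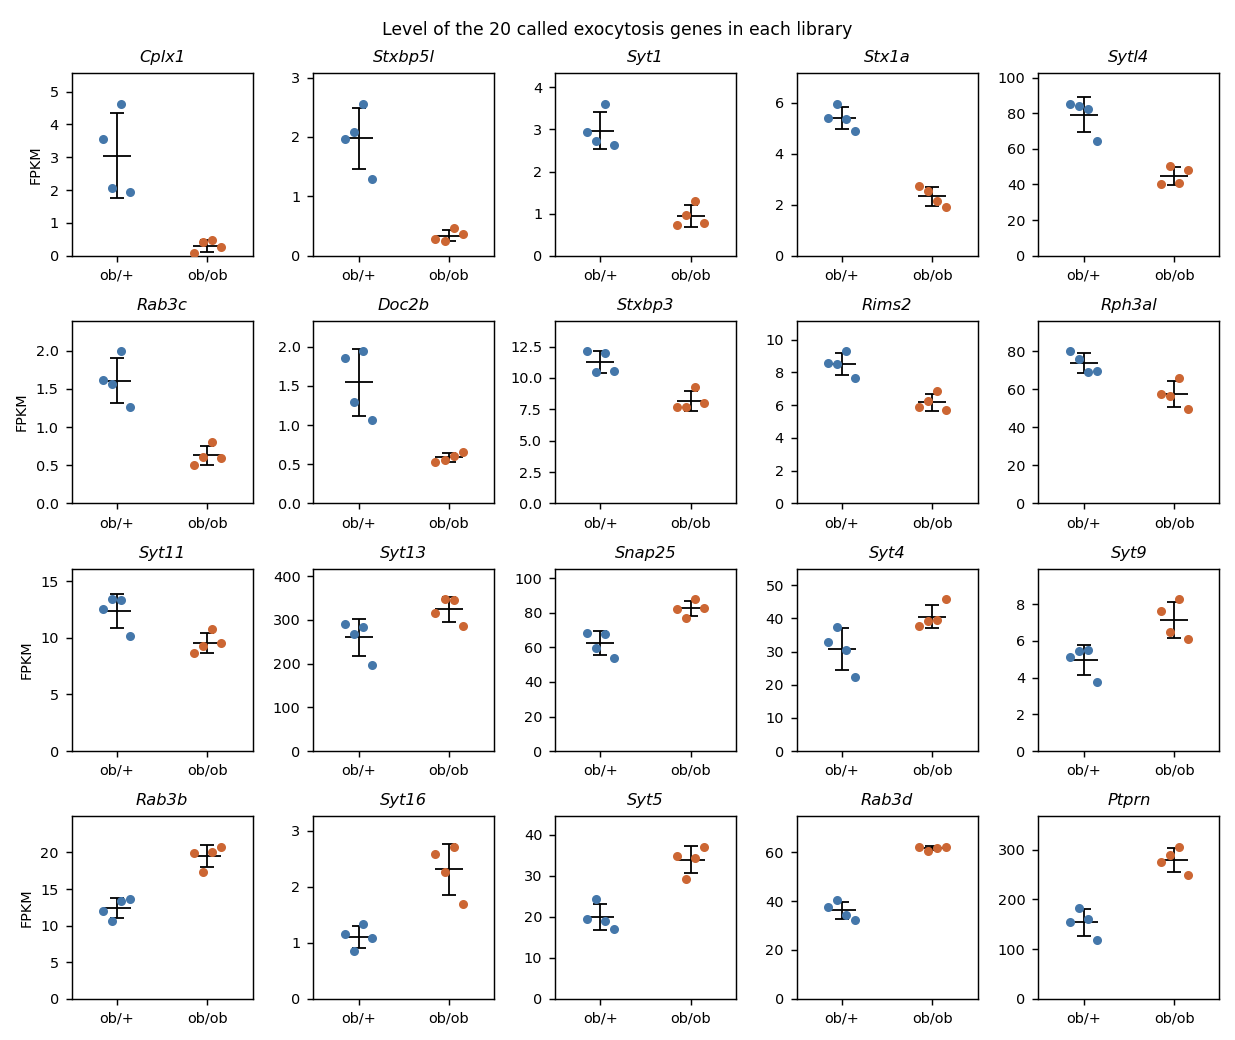
FPKM of the 20 called exocytosis genes in each library (1 dot per library, blue ob/+, orange ob/ob), with the mean and SD as black bars, ordered from the most negative to the most positive log2 change; each vertical axis starts at 0. Stx1a, Sytl4, Rab3d and Ptprn show wide gaps between the groups, while Syt11 and Syt13 overlap.

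Several of the lower members are also neuronal genes, and markers of autonomic neurons moved the same way. The 15 markers summed to 102 to 149 FPKM in ob/+ and to 25.7 to 38.8 FPKM in ob/ob, 4.09-fold higher in ob/+. Of the 12 tested, 11 were called lower, and 13 of the 15 did not overlap between the groups. Among the called markers, Phox2a, Slc18a3, Chrna3 and Nefl passed the filter through their ob/+ values alone and so had to differ. The median marker was 10.5-fold higher in ob/+. The neuronal filament gene Prph fell by 2.31 and the acetylcholine receptor gene Chrna3 by 1.74 on the log2 scale (limma adjusted p = 1.91e-09 and 4.62e-09). By contrast Nefm was not called, and Th, which made up much of the ob/ob sum, was only 1.46-fold higher in ob/+. Within each genotype the neuronal list peaked in library 3: 10 of 15 markers were highest in ob/+ library 3 and 13 of 15 in ob/ob library 3. Cplx1, Stxbp5l, Syt1, Rab3c and Rims2 were highest in the same 2 libraries. So were Syt9 and Syt16, which were called higher, and, among others, the uncalled Cplx2 and Ptprn2. The peak in these libraries was therefore not particular to the lower members. Doc2b was highest in ob/+ 3 and ob/ob 4, Stx1a in ob/+ 2 and ob/ob 1, and Sytl4 in ob/+ 1 and ob/ob 2. The neuronal sums did not overlap between the genotypes, so neuronal content and genotype cannot be told apart in these libraries. Of the glial markers of nerves, 2 of 4 tested were called lower. Of these, Sox10 passed the filter through its ob/+ values alone and so had to differ.

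**Figure D4:**
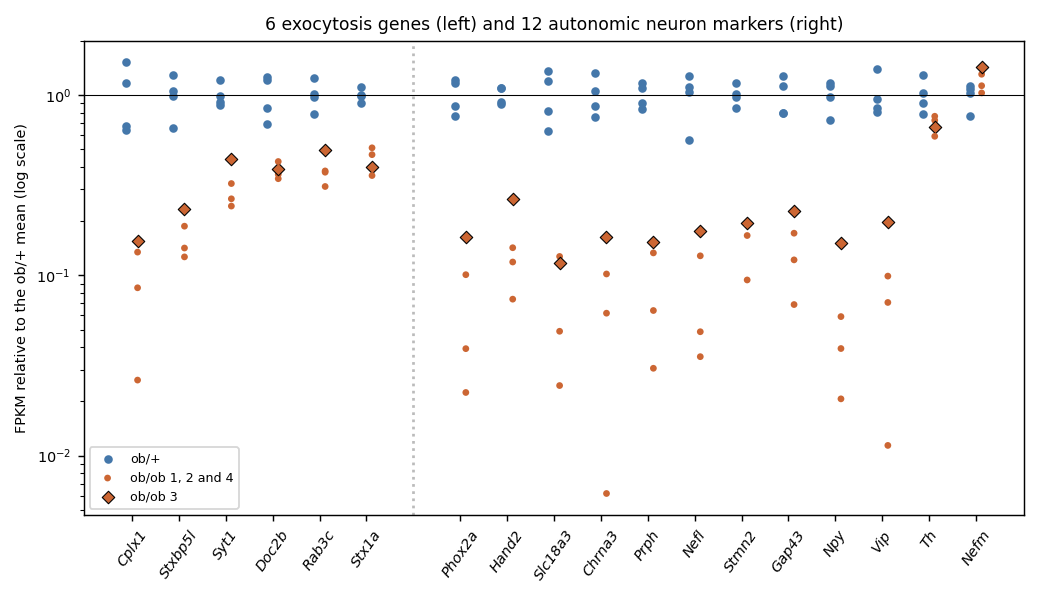
FPKM of 6 lower exocytosis genes and 12 autonomic neuron markers in each library, divided by the gene's ob/+ mean (vertical log axis); blue dots are ob/+ libraries, orange dots ob/ob libraries 1, 2 and 4, and diamonds ob/ob library 3. Cplx1 and Stxbp5l lie lowest of the 6 exocytosis genes, all neuron markers shown except Th and Nefm lie well below the blue dots, and the diamond is the highest ob/ob point for Cplx1, Stxbp5l, Syt1 and Rab3c. Cplx1, Stxbp5l, Doc2b and Rab3c passed the filter through their ob/+ values alone, which fixed their direction. The same holds for the markers Phox2a, Slc18a3, Chrna3 and Nefl.

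The markers of the minor endocrine cells were lower in ob/ob too. Alpha cell markers summed to 23695 to 30570 FPKM in ob/+ and 7132 to 10085 in ob/ob, with 5 of 6 tested called lower, and all 3 tested delta cell markers were called lower. Glucagon (Gcg) fell by 1.68 and somatostatin (Sst) by 2.20 on the log2 scale (limma adjusted p = 1.27e-09 and 1.37e-13). The part of these cells in the lower exocytosis genes was not tested. Beta cell markers split, with 2 of 10 higher and 4 lower.

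Another 113 genes of the same pathway, listed by role and not by how they moved, served as context: other SNAREs, synaptotagmins, Rab regulators, exocyst subunits, active zone and vesicle membrane proteins. Of the 92 tested, 7 were called higher and 17 lower (26.1% in all), with a median log2 change of -0.11. Over all tested genes 8.21% were called higher and 10.6% lower, with a median of -0.07. Mlph, a Rab27 effector, read 3.32, 2.87, 3.10 and 3.34 FPKM in ob/+ and 0.81, 0.52, 0.51 and 1.00 in ob/ob (-1.29 ± 0.13, adjusted p = 3.89e-08). It was 4.45-fold higher in ob/+, beside the lower Rab27 effectors Sytl4 and Rph3al. Sytl1, another Rab27 effector of the granuphilin family, went the other way and read 11.0, 9.23, 8.44 and 9.67 FPKM in ob/+ and 22.0, 18.0, 17.9 and 18.3 in ob/ob (0.92 ± 0.12, adjusted p = 1.87e-06). The vesicle protein Syngr3 (-1.09 ± 0.14), the synaptotagmin Syt6 (-0.97 ± 0.13) and the synapsin Syn2 (-0.58 ± 0.12) fell, with adjusted p of 2.41e-06, 4.35e-06 and 6.62e-04. Rabac1, a Rab-binding membrane protein, rose (0.39 ± 0.08), as did Stxbp6 (0.58 ± 0.13), which carries a tomosyn-like SNARE motif, and the Golgi SNARE Bet1 (0.41 ± 0.12), with adjusted p of 0.00151, 0.00185 and 0.0134. Syt6 was at 1 FPKM or more in ob/+ only. None of the 11 tested exocyst genes rose and 2 fell, and 20 of the 23 other SNAREs tested were not called. With 18.8% of all tested genes called, these counts do not set either group apart.

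The split between higher and lower calls depended on the scaling. With libraries scaled without the 10 most abundant genes, which shifted the median of all genes by 0.10 on the log2 scale, 12 members were higher and 6 lower, against 10.9% and 5.29% of all tested genes. With libraries scaled on the non-acinar genes, which shifted the median of all genes by -0.21, 5 members were higher and 22 lower, against 4.37% and 47% of all. Without ob/+ library 4, 10 members were higher and 16 lower, against 9.51% and 32.1% of all. In the last 2 settings the share of all genes called lower had risen too. None of the 20 called members changed sign under any of the 5 scalings that tested it; Doc2b was below the filter with the 10 most abundant genes left out. Stx1a, Syt1, Syt5, Syt16, Stxbp5l, Rab3b, Rab3c, Rab3d, Sytl4, Doc2b, Cplx1 and Ptprn, 12 of the 20, kept their call in every alternative that could test them. Of these, Stxbp5l, Rab3c, Doc2b and Cplx1 passed the filter through their ob/+ values alone and so had to differ. Their kept calls therefore do not show stability.

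**Figure D5:**
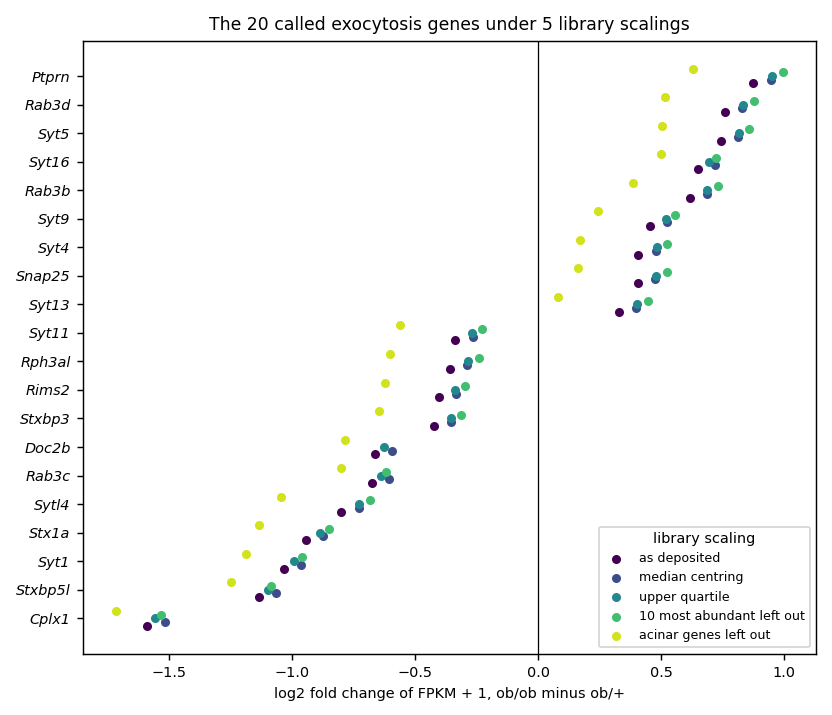
Log2 change of FPKM + 1 (ob/ob minus ob/+) of the 20 called exocytosis genes under 5 library scalings, 1 colour each. No gene crosses 0; with scaling on the non-acinar genes the points move to the left, and Syt13 comes to 0.08.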

How the data were processed

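RNA of mouse islets was sequenced in 8 libraries, 4 of each labelled genotype. The values the authors deposited are FPKM per gene and library, a unit inferred from the values (2 decimals, unequal sums, steps that scale with transcript length) and not named in the labels. The submitters' processing notes name Trimmomatic 0.36 and DESeq2 1.20.0, and the build as mm10 or GRCm38, without a role. Which aligner and which quantifier made the values is not given in the sources used here. FPKM holds no counts, so absolute depth is unknown and no counting intervals are given. As FPKM is relative, abundant insulin or acinar transcripts pull the other genes down.

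A gene entered the fit if at least 4 of 8 libraries reached 1 FPKM. Limma 3.58.1 (R 4.3.3, statmod 1.5.0; eBayes with trend and robust) gave a two-sided test of genotype on the scale log2(FPKM + 1). A gene was called where its Benjamini-Hochberg adjusted p over the 11747 tested genes was under 0.05. The script was tested on simulated data. No test was made over the list. The members and lists were chosen with earlier results of these data known. Every called member is named with its values; of the 113 further pathway genes, up to 4 in each direction with the smallest adjusted p were named; 1 gene is not reported here and the next stands in its place. Members were located in GENCODE M21 (GRCm38), all 47 by symbol. The 20 alternatives changed the scaling, filter, pseudocount, eBayes setting, replicate block, acinar covariate and libraries used.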

Additional observations from a re-analysis of the deposited data

Results flagged for a closer look

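Among 102 groups of 4 libraries (the members' values and the summed measures, each within 1 genotype), 5 had a single library that stood apart from the other 3 by Dixon's ratio. Chance alone gives about 1 in 20 such groups, which is as many as were found. In ob/+ library 4, the library with the largest acinar share, Sytl4 stood at 64.5 FPKM (the others at 82.6 to 85.3), Ptprn2 at 142.6 FPKM (205 to 211) and Rab27b at 0.76 FPKM (0.32 to 0.38). In ob/ob library 4, Vamp2 stood at 90.31 FPKM (105 to 107). In ob/ob library 3, Rab27a stood at 71.55 FPKM (68.3 to 68.9). Of these genes only Sytl4 was called, and its call held without that library.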

How the results depend on the processing

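None of the named genes reversed a call in any of the 20 alternatives. The count of genes changed (2208) became 3429 with median centring, 3442 with upper-quartile scaling, 6045 with scaling on the non-acinar genes and 4000 without both ob/+ 4 and ob/ob 1, and ran from 1434 (without ob/+ 1) to 4832 (without ob/+ 4) when 1 library was left out. The 20 called exocytosis members became 12 without ob/+ 1 and 13 without ob/+ 3, and up to 26 without ob/+ 4; in each, the 4 members that had passed through ob/+ alone were below the filter. The 24 called genes of the wider list became 53 with scaling on the non-acinar genes, and ran from 12 (without ob/ob 1) to 47 (without ob/+ 4); they were 14 without ob/+ 1, 13 without ob/+ 3 and 15 without ob/ob 2. The members' median log2 change of -0.06 became -0.28 with scaling on the non-acinar genes. The causes of these shifts were not tested. Of the 24 uncalled tested members, 18 passed the threshold in at least 1 alternative, and 11 changed sign in at least 1. With the replicate number as a block, 2674 genes and 22 members were called, and Syt4 lost its call (adjusted p = 0.0698). Vamp2, Vamp3 and Syt3 gained a call (limma adjusted p = 0.0269, 0.0460 and 0.0412). Same-numbered libraries shared deviations with correlations from -0.22 to 0.21, and 5 of 8 libraries correlated best with their own number. Whether same-numbered libraries share a batch was not tested, and the labels do not say.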
